A study of Mus musculus with 12 samples.

Results

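T cell lymphomas that arose in TCF-1-deficient mice were compared with DN3 thymocytes of TCF-1-deficient mice that carried no such label, so that both sides of the comparison lacked TCF-1. The members were the 6 arrays labelled as lymphoma and the 3 labelled as TCF-1 KO DN3 thymocytes, 9 of the 12 arrays of the series. The other 3 arrays held DN3 thymocytes of wild-type mice, and their levels are given only for reference. All mice were C57/BL6. The DN3 thymocytes came from mice of 8 to 12 weeks and the lymphomas from mice of 12 to 40 weeks. These ranges meet only at 12 weeks, so that age and disease cannot be told apart. Both kinds of cell were sorted from the thymus directly into lysis reagent, and total RNA was amplified with a kit for very small inputs before it was hybridised to gene arrays. Surface markers of the lymphoma sort were not stated in the labels. Each replicate is called biological there, with nothing on litters or on repeated sampling of 1 mouse, and p-values therefore speak only of the variation among these 9 samples. In what follows, DN3 without a further word means TCF-1-deficient DN3, and a level or a difference is always on the log2 scale, 1 unit being a 2-fold change.

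TCF-1 is an HMG-box DNA-binding protein that is induced by Notch signalling in the earliest thymic progenitors and helps to open the chromatin of T-lineage genes. It also serves as a nuclear partner of beta-catenin in Wnt signalling, where it can repress or activate its targets. DN3 thymocytes are the immature cells in which the T cell receptor beta locus is rearranged by the RAG recombinase and in which the pre-T cell receptor then tests the product. Progression past this checkpoint is accompanied by proliferation, loss of Notch dependence and silencing of the RAG genes.

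The array medians lay between 5.3 and 5.39, and 14953 genes were bright enough to be tested. The first principal component of the 9 arrays carried 38.6% of their variance and placed the DN3 arrays between -28.6 and -18.4 and the lymphomas between 4.4 and 19. The second, with 21.4%, separated DN3 replicate 1 and lymphomas 1 and 2 from the other 6 arrays. The same 3 arrays, with wild-type replicate 1, were separated from the rest by at least 1 unit in 34 unnamed rows, and they are called the smaller array batch here. The labels name no batch. Xist RNA, made by the inactive X chromosome of females, was above a level of 7 in 2 of 3 DN3 arrays and in 3 of 6 lymphomas. The gene deleted in the mutant was not analysed here, and genotypes are taken from the labels alone.

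Of the 14953 genes, 990 differed between lymphoma and DN3 at a limma adjusted p under 0.05 (6.62% of those tested), 673 being higher in lymphoma (4.50%) and 317 lower (2.12%). Rises thus made up 68.0% of the calls, although 43.5% of all tested genes lay above 0 and the median difference was -0.03. That share was 59.5% (575 of 966 calls) with arrays quantile-normalised again and 75.9% (789 of 1039) with arrays median-centred. Most calls were modest in size, since 89 genes (0.595%) rose and 57 (0.381%) fell by at least 2-fold. The 6 lymphoma arrays and the 3 DN3 arrays did not overlap for 2030 genes (13.6% of those tested), among them 927 of the 990 called. Among the 3738 brightest genes 366 rose and 79 fell, with a median difference of 0.11. Among the 3739 dimmest 18 rose and 62 fell, with a median of -0.10. The number of calls was 457 without DN3 replicate 1, 431 without DN3 replicate 3, 1702 with the array batch as a term and 325 within the larger batch alone.

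**Figure D1:**
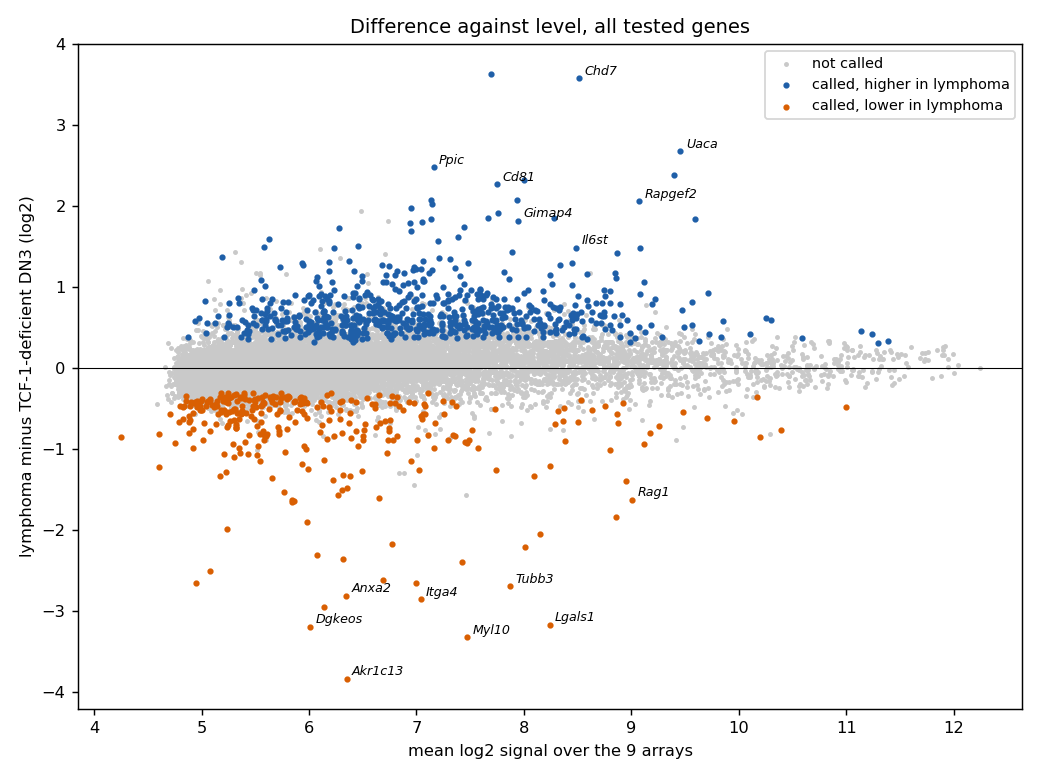
Difference between the lymphoma mean and the TCF-1-deficient DN3 mean (vertical axis, log2) against the mean level over the 9 arrays (horizontal axis, log2 signal), 1 point per tested gene. The 673 genes called higher are blue and the 317 called lower are orange, and blue points are more frequent on the right, among bright genes.

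The leading genes, 12 in each direction, were taken by size from the calls without overlap between lymphoma and DN3 arrays, so their separation is part of the choice and no finding. The largest rise chosen by this rule was that of Chd7, which encodes an ATP-dependent chromatin remodeller. Its level was 5.22, 6.97 and 6.19 in the 3 DN3 arrays, and its lowest, median and highest levels in the lymphomas were 9.03, 9.69 and 10.52. All 6 lymphomas lay above all DN3 arrays, with a difference of 3.58 ± 0.35 (SE) and an adjusted p of 0.000129. Wild-type DN3 had a mean level of 6.09. Chd7 has 30 rows on the array, and the difference was 1.93 when they were averaged in place of taking the brightest, so that its size depends on the row.

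Several of the other leading rises were genes of the cell surface. Pdgfrb, a receptor tyrosine kinase for platelet-derived growth factor best known from mesenchymal cells, was at 6.55, 6.43 and 6.35 in DN3 and at 8.56, 8.76 and 9.02 (lowest, median, highest) in the lymphomas. The groups were far apart and each was tight, giving a difference of 2.32 ± 0.12 and an adjusted p of 1.81e-06. Cd81, a tetraspanin of the cell surface, rose from 5.91, 6.31 and 6.51 to between 8.30 and 8.69 (difference 2.27 ± 0.14, adjusted p = 3.23e-06). Slc44a1, a choline transporter, was at 5.15, 6.13 and 6.08 in DN3 and between 7.0 and 8.82 in the lymphomas, and its difference was 2.03 ± 0.38 (adjusted p = 0.00823) but 1.36 with its rows averaged. Drd5, a dopamine receptor, was at 5.17, 5.56 and 6.17 and then between 6.69 and 8.51 (difference 1.98 ± 0.37, adjusted p = 0.00826). Lymphomas lay above every DN3 array for each of these genes. Itm2a, a membrane protein that is induced on positive selection in normal thymus, was at 6.31, 6.66 and 6.32 in DN3 and between 8.01 and 8.73 in the lymphomas (difference 1.86 ± 0.15, adjusted p = 2.74e-05).

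Other leading rises encode proteins of varied kinds. Uaca, which encodes a protein of apoptosome regulation, was at 7.87, 8.02 and 7.12 in DN3 and between 9.78 and 10.71 in the lymphomas (difference 2.68 ± 0.22, adjusted p = 2.63e-05). Rapgef2, an exchange factor for the Rap GTPases, was tightly grouped at 7.57, 7.72 and 7.81 against 9.52 to 9.99 (difference 2.06 ± 0.11, adjusted p = 1.92e-06). Ctnnd1, the p120 catenin of cadherin junctions, was at 5.86, 6.05 and 5.35 in DN3 and at 7.81 to 8.07 in all lymphomas but the fourth, where it was 7.28 (difference 2.08 ± 0.18, adjusted p = 5.27e-05). Again no lymphoma reached down to the DN3 range. Egln3, a prolyl hydroxylase of hypoxia-inducible factors, rose by 2.08 ± 0.25 (adjusted p = 0.000583), and Ppic, a cyclophilin, by 2.48 ± 0.38 (adjusted p = 0.00292). The rise of Ppic was 3.69 in the smaller array batch and 1.88 in the larger one, and its wild-type mean level of 6.87 lay above the DN3 mean of 5.50.

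Etv5, an ETS-family transcription factor, showed the widest spread among the risers. It was at 6.31, 6.54 and 6.59 in DN3, at 8.27 to 9.36 in 5 lymphomas and at 6.66 in lymphoma 5, barely above DN3 (difference 1.92 ± 0.43, adjusted p = 0.022, and 1.54 with its rows averaged). The calls of Slc44a1, Drd5 and Etv5 were lost without DN3 replicate 1 (adjusted p = 0.0547, 0.0548 and 0.0899) and within the larger batch alone (0.0577, 0.0657 and 0.176), and that of Etv5 also without DN3 replicate 3 (0.0827). The other 21 of the 24 leading genes were called whichever array was left out. A pair of loci known only by clone names lie outside the rule for named genes, 5031434C07Rik with a rise of 3.63 ± 0.57, above that of Chd7, and I730030J21Rik with one of 2.39 ± 0.23.

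Among the leading falls, Akr1c13 and Akr1c12 encode aldo-keto reductases that act on steroids and xenobiotics. Akr1c13 was at 9.45, 8.88 and 8.40 in DN3 and at 4.44 to 5.02 in 5 lymphomas, with 6.64 in lymphoma 1 (difference -3.83 ± 0.40, adjusted p = 0.000225). Akr1c12 was at 7.12, 6.65 and 6.37 in DN3 and between 3.91 and 4.25 in the lymphomas (difference -2.65 ± 0.14, adjusted p = 1.81e-06). Every lymphoma lay below every DN3 array for both. The lymphoma levels of Akr1c12 lie below 4.78, the level under which genes were left out as dim, so its difference may be understated. Wild-type DN3 were at a mean of 7.91 for Akr1c13 and 4.39 for Akr1c12, so the latter stood high in TCF-1-deficient DN3 alone. These genes are close paralogs, and probes of one may bind RNA of the other.

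Lgals1, the beta-galactoside-binding lectin galectin-1, was at 10.77, 10.36 and 9.93 in DN3 and at 6.18, 7.23 and 8.14 (lowest, median, highest) in the lymphomas (difference -3.17 ± 0.42, adjusted p = 0.00119). Itga4, the integrin alpha chain of VLA-4 that binds VCAM-1 and fibronectin, was at 8.64, 8.99 and 9.18 against 5.52 to 7.12 (difference -2.85 ± 0.30, adjusted p = 0.000235). Anxa2, a phospholipid-binding annexin, was at 8.16, 8.16 and 8.33 against 4.98 to 5.78 (difference -2.81 ± 0.16, adjusted p = 2.4e-06). In none of these did the groups overlap. S100a10, the partner of Anxa2 in a heterotetramer, fell from 8.41, 7.72 and 7.52 to between 5.20 and 5.78 (difference -2.36 ± 0.18, adjusted p = 1.81e-05), and its relative S100a11 fell by 1.39 ± 0.23 (adjusted p = 0.0046). Of the 10 tested S100 genes these 2 were called, Anxa2 was the 1 called of 6 tested annexins and Lgals1 the 1 called of 7 tested galectins. Over all tested genes the share called was 6.62%. S100, annexin and galectin genes were looked up after their values were seen.

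Tubb3, a beta-tubulin best known from neurons, was at 9.88, 9.52 and 9.60 in DN3 and between 6.63 and 7.15 in the lymphomas (difference -2.69 ± 0.13, adjusted p = 1.13e-06). Wild-type DN3 had a mean of 8.19, between the other groups. Of the 7 tested beta-tubulin genes, Tubb2a (-1.01 ± 0.13) and Tubb2b (-1.04 ± 0.11) were also called lower (as were 2.12% of all tested genes) and none was called higher. Both were chosen after their values were seen, and as near-identical paralogs they may share probes. Myl10, a myosin light chain gene, was at 10.09, 9.73 and 9.24 against 5.17 to 7.35 (difference -3.32 ± 0.40, adjusted p = 0.000663). Its wild-type mean of 10.18 lay near that of DN3, at 9.69. Dgkeos, a noncoding transcript antisense to a diacylglycerol kinase gene, differed by -3.19 ± 0.22 (adjusted p = 9.79e-06), and Rnf130, a ubiquitin ligase, by -2.95 ± 0.23 (adjusted p = 2.63e-05).

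**Figure D2:**
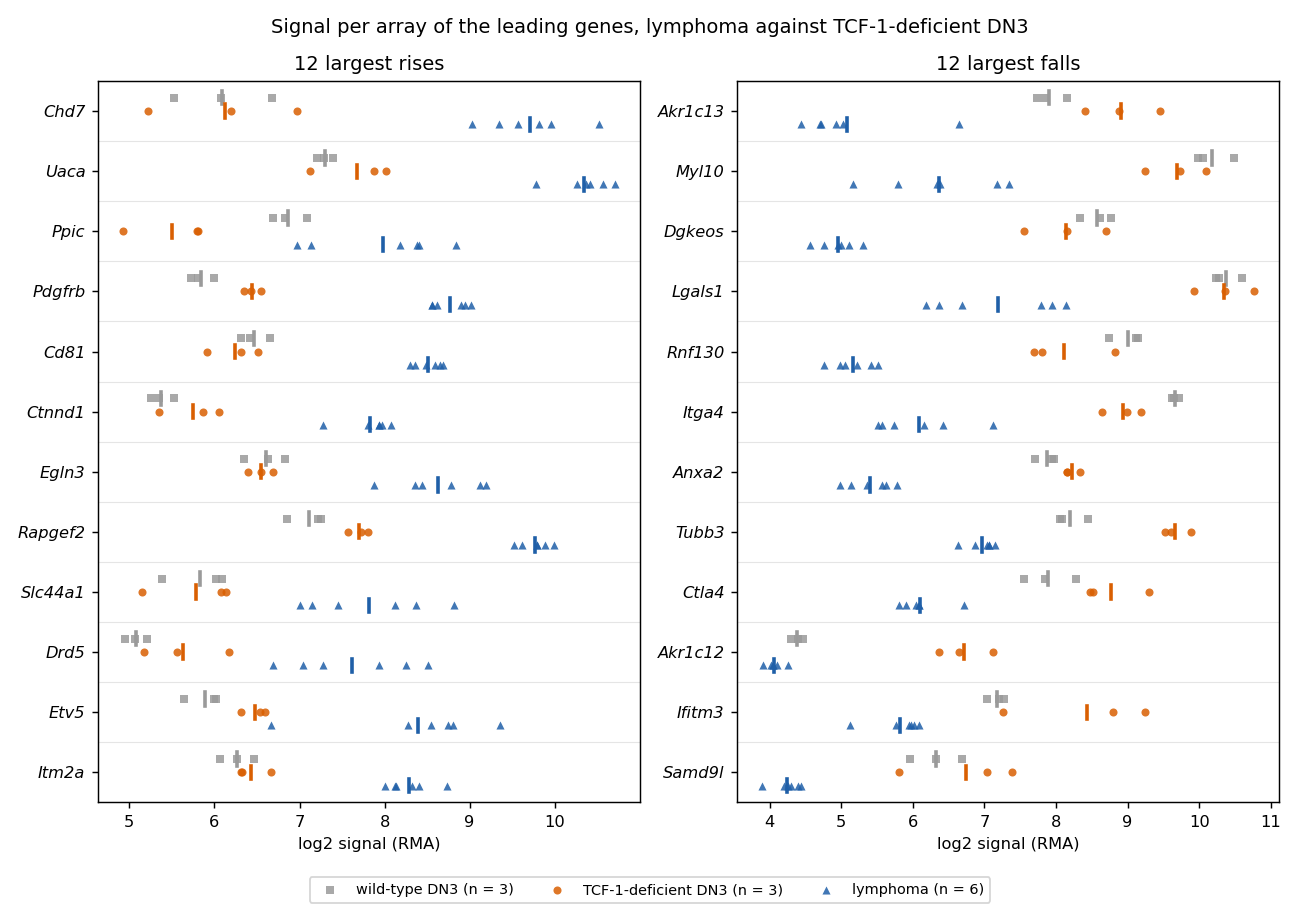
Log2 signal per array (horizontal axis) of the 12 largest rises (left) and 12 largest falls (right), with wild-type DN3 as grey squares, TCF-1-deficient DN3 as orange circles, lymphomas as blue triangles and a vertical bar at each group mean. In each of the 24 rows the blue triangles and the orange circles do not overlap, as the rule for these genes required, while lymphoma 5 lies close to DN3 for Etv5.

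The differences can also be taken inside each array batch. In the smaller batch Xist was at 10.1 in DN3 replicate 1 and at 4.25 and 4.4 in lymphomas 1 and 2. Sex and disease therefore cannot be told apart there, and that batch holds only 1 DN3 array. All 24 leading genes differed in the same direction within the smaller batch (DN3 replicate 1 against lymphomas 1 and 2) and within the larger one (2 against 4 arrays), which the choice of genes with separate arrays fixes. The sizes are not fixed by it. Chd7 differed by 4.24 and 3.25, Slc44a1 by 3.32 and 1.39, Rnf130 by -3.92 and -2.47, and Anxa2 by -2.88 and -2.77. Ppic and Slc44a1 therefore rest more on the smaller batch than the others do.

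**Figure D3:**
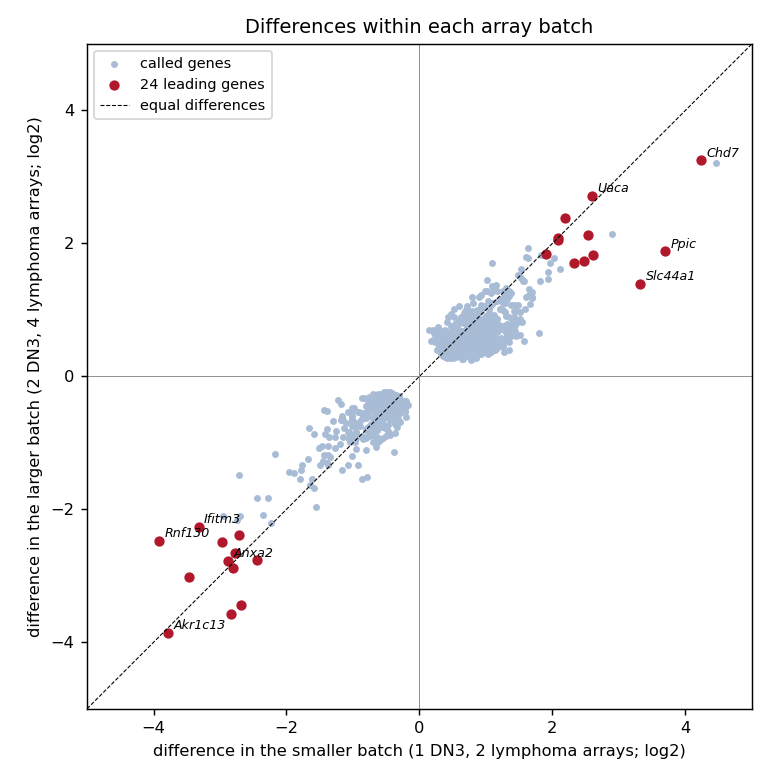
Difference between lymphoma and TCF-1-deficient DN3 within the smaller batch (horizontal axis, log2) and within the larger batch (vertical axis, log2) for the 990 called genes, with the 24 leading genes in red and a dashed line of equal differences. The red points lie at the lower left and upper right, and Ppic and Slc44a1 sit below the line with larger rises in the smaller batch.

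The labelled cell type was checked on T cell genes first. The 9 tested T cell identity genes had mean levels of 9.20 to 9.23 in the DN3 arrays and 9.33 to 9.43 in the lymphomas. Among them 2 were called higher and none lower (22.2% called, against 6.62% of all tested genes). Il2ra, the CD25 marker of the DN3 stage, was at 10.61, 10.88 and 10.37 in DN3 and at 9.89, 10.46 and 10.62 in the lymphomas. The ranges overlapped and the difference of -0.23 ± 0.16 was not called (adjusted p = 0.397). Cd4 lay between 4.82 and 5.14 over all 9 arrays, close to the level of 4.78 below which genes were left out, and Cd44 between 4.92 and 5.13. Cd8a was at 7.05, 7.03 and 6.98 in DN3 but spread from 5.82 to 7.70 in the lymphomas, and Cd8b1 spread from 6.77 to 8.14 around DN3 levels of 7.34 to 7.41. Neither was called (adjusted p = 0.555 and 0.944). Wild-type means were 5.80 and 5.98. Cd2, an adhesion receptor at a wild-type mean of 5.61, was at 9.61, 9.45 and 9.59 in DN3 and between 9.25 and 10.02 in the lymphomas, and it was not called either (0.19 ± 0.15, adjusted p = 0.455). Of 16 tested DN3 markers 1 was called higher and 3 lower, with a median difference of -0.24 against -0.03 over all genes. Among all tested genes 4.50% were called higher and 2.12% lower.

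The recombinase gene Rag1 was the most changed of these markers. It was at 10.18, 10.15 and 9.93 in DN3 and at 7.42, 8.66 and 9.63 (lowest, median, highest) in the lymphomas. All lymphomas lay below DN3, but they spread over more than 2 units (difference -1.62 ± 0.37, adjusted p = 0.023). Its partner Rag2 was at 6.37, 6.18 and 6.03 in DN3, at 4.84 to 5.64 in 5 lymphomas and at 6.48 in lymphoma 6, above DN3 (difference -0.89 ± 0.31, adjusted p = 0.105, not called). Dntt, the terminal transferase that adds bases at the joints, was not called (-0.26 ± 0.15). Xrcc5, the Ku80 subunit of DNA end joining, rose by 0.74 ± 0.12 (adjusted p = 0.00423), and no other gene of the 10 tested in this list was called. Ptcra, the pre-T cell receptor alpha chain, was at 7.46, 7.09 and 7.01 in DN3 and between 6.17 and 6.95 in the lymphomas (difference -0.64 ± 0.17, adjusted p = 0.047). The call of Rag1 was lost without DN3 replicate 1, 2 or 3 (adjusted p = 0.0891, 0.0544 and 0.0787) and within the larger batch (0.152). That of Ptcra was lost with any single array left out other than lymphoma 5 or 6 (0.0626 to 0.176). Ptcra was also not called within the larger batch (0.275), with arrays median-centred (0.0621) or without the filter on dim genes (0.0563).

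E proteins are the transcription factors that drive Rag1 and Ptcra in normal DN3 cells, and Id proteins bind them and block DNA contact. Id2 was at 6.73, 6.32 and 5.88 in DN3 and at 6.70, 7.89 and 8.76 (lowest, median, highest) in the lymphomas. Lymphoma 3 lay inside the DN3 range and the other 5 above it, with a difference of 1.62 ± 0.36 (adjusted p = 0.0219) that was no longer called without DN3 replicate 3 (adjusted p = 0.124). Wild-type DN3 were lower still, at a mean of 5.49. Id3 (-0.09 ± 0.17) and the E protein gene Tcf12 (0.31 ± 0.10) were not called, nor was any other of the 7 tested members. The 1 call is 14.3% of this list, against 6.62% of all tested genes. The E-box CAGCTG, which reads the same on both strands, is a motif bound by E proteins. The promoters of Rag1 and Id2 are shown because these genes moved in opposite directions, and each holds 1 copy, in capitals, 128 and 196 bases before the annotated start. They are given as the 250 bases before the start, from RefSeq (GRCm38.p6), both on the minus strand, at chr2:101649533-101649782 and chr12:25096093-25096342.
Rag1: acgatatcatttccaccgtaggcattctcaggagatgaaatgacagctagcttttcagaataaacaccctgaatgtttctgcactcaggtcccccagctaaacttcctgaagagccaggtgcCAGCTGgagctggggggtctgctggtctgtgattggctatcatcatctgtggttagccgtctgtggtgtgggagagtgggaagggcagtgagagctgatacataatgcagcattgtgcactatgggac
Id2: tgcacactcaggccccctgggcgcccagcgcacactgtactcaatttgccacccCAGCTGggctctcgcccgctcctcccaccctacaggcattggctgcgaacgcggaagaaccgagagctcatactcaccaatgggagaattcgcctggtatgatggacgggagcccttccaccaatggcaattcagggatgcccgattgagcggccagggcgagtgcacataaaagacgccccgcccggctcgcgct

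That motif was present in 12.5% of the 9615 tested genes with a single promoter entry, in 14.7% of 416 such genes called higher and in 15.1% of 172 called lower. The TCF/LEF motif CTTTGA, searched on both strands, was found in 11.6%, 9.86% and 12.8% of the same sets, the RUNX motif TGTGGT in 11.6%, 10.3% and 11%, and the RBPJ motif TGGGAA in 20.6%, 20.7% and 23.3%. The Rag1 promoter shown above also holds the RUNX and RBPJ motifs, which are not marked there. A match in 250 bases is a description of the letters and not a binding site.

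Notch drives DN3 cells and is a frequent target of mutation in T cell leukaemia. Of 15 tested Notch genes 2 were called higher and 1 lower, while 6.62% of all tested genes were called in either direction. The median difference of the list was -0.04. Rbpj, the DNA-binding partner of the Notch intracellular domain, rose by 0.47 ± 0.10 (adjusted p = 0.0197), and Cd3e and Ptcra were the other calls. Notch1 was at 8.39, 8.79 and 8.41 in DN3 and between 7.62 and 8.28 in the lymphomas. The groups did not overlap but the difference of -0.48 ± 0.16 was not called (adjusted p = 0.0874). The target genes Hes1 (0.72 ± 0.29, adjusted p = 0.148) and Dtx1 (0.29 ± 0.12, adjusted p = 0.174) and the receptor Notch3 (0.14 ± 0.13, adjusted p = 0.545) were not called. The call of Rbpj was lost without DN3 replicate 1 or 3 (adjusted p = 0.091 and 0.078), with arrays quantile-normalised again (0.0796), with its rows averaged (0.0648) and within the larger batch (0.157). With the array batch as a term 3 Notch genes were called higher and 2 lower, and Notch1 was among the latter (adjusted p = 0.0145).

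**Figure D4:**
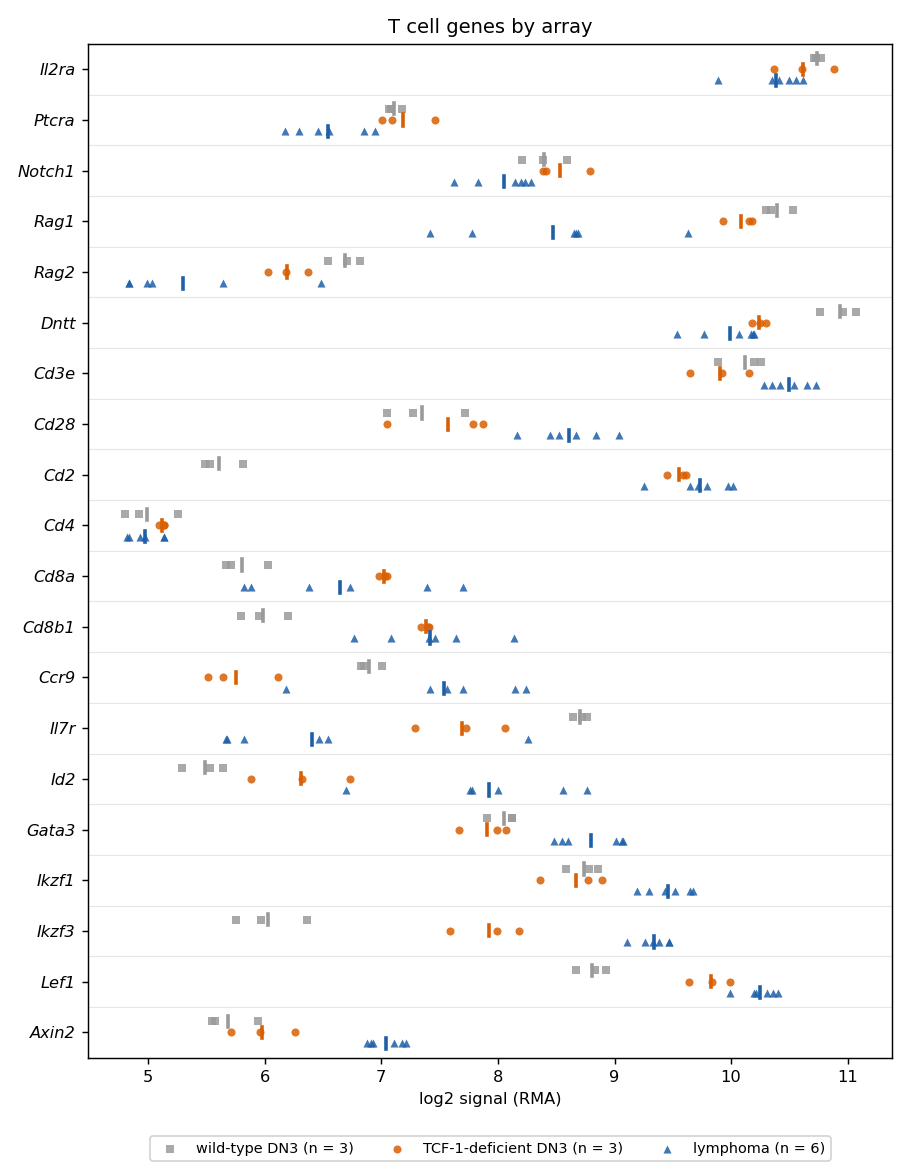
Log2 signal per array (horizontal axis) of 20 T cell genes, with wild-type DN3 as grey squares, TCF-1-deficient DN3 as orange circles, lymphomas as blue triangles and a vertical bar at each group mean. Lymphomas lie below TCF-1-deficient DN3 for Rag1, above it for Axin2 and Ikzf3, and across it for Il2ra, Cd4 and Cd8b1.

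With TCF-1 absent from both groups, the Wnt list shows what differed beyond the genotype. Of its 17 tested genes 2 were called higher and 3 lower (29.4% called, against 6.62% of all tested genes), with a median difference of -0.12. Axin2, a feedback inhibitor whose transcription is a common readout of beta-catenin activity, was at 6.26, 5.71 and 5.96 in DN3 and at 6.88, 7.02 and 7.21 (lowest, median, highest) in the lymphomas. Every lymphoma lay above every DN3 array, with a difference of 1.06 ± 0.13 (adjusted p = 0.000619). Lef1, the closest relative of TCF-1, was at 9.64, 9.84 and 9.99 in DN3 and between 9.99 and 10.40 in the lymphomas, the ranges meeting at 9.99, against a wild-type mean of 8.81 (difference 0.42 ± 0.11, adjusted p = 0.0449). Ccnd2, cyclin D2, fell from 8.41, 8.36 and 7.93 to between 6.74 and 7.78 (difference -0.99 ± 0.20, adjusted p = 0.0126). Tcf7l2, another relative of TCF-1, fell by 0.52 ± 0.09 (adjusted p = 0.00583) and Sp5, a Wnt target encoding a zinc-finger factor, by 0.51 ± 0.09 (adjusted p = 0.00833). The call of Lef1 was lost with any single array left out other than lymphoma 1 (adjusted p = 0.0605 to 0.165) and with arrays quantile-normalised again (0.117). Those of Ccnd2 and Sp5 were lost without DN3 replicate 1 (0.0669) and 3 (0.0502), and Lef1 and Tcf7l2 were not called within the larger batch (0.0991 and 0.0757).

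Transcription factors of the T lineage were called in 1 direction. Of 19 tested, 5 were higher and none lower (26.3% called, against 6.62% of all tested genes), with a median difference of 0.15. Mean levels of the list were 7.31 to 7.38 in DN3, and calls among the 3738 brightest genes were mostly rises too (366, with 79 falls). Ikzf3, the lymphoid zinc-finger factor Aiolos, was at 7.59, 8.18 and 7.99 in DN3 and at 9.11, 9.36 and 9.47 in the lymphomas, with a wild-type mean of 6.03. The groups did not overlap (difference 1.42 ± 0.13, adjusted p = 7.6e-05). Ikzf2, or Helios, rose by 0.93 ± 0.15 (adjusted p = 0.00423), from 8.73, 9.28 and 9.26 to between 9.79 and 10.34. Ikzf1, or Ikaros, the founding member of this family and a tumour suppressor in lymphocytes, was at 8.36, 8.77 and 8.89 in DN3 and between 9.19 and 9.67 in the lymphomas (difference 0.79 ± 0.14, adjusted p = 0.00673). Gata3, which is needed for T cell commitment, was at 7.67, 8.07 and 7.99 against 8.48 to 9.07 (difference 0.89 ± 0.16, adjusted p = 0.00673). Ets1 rose by 0.48 ± 0.10 (adjusted p = 0.0119), and Bcl11b, the commitment factor of the DN2 to DN3 step, was not called (-0.25 ± 0.12, adjusted p = 0.222). Ikzf1, Gata3 and Ets1 were not called within the larger batch alone (adjusted p = 0.0763, 0.0635 and 0.0576), and Ets1 was not called without DN3 replicate 1 (0.0597) or with arrays quantile-normalised again (0.0806).

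Genes of the CD3 complex and proximal T cell receptor signalling were called higher in 6 and lower in 1 of 20 cases, with a median of 0.28. Over all tested genes 4.50% were called higher and 2.12% lower. Cd28, the costimulatory receptor, was at 7.05, 7.87 and 7.79 in DN3 and at 8.16, 8.60 and 9.04 in the lymphomas (difference 1.04 ± 0.21, adjusted p = 0.0117). Cd3e, a signalling chain of the receptor complex, was at 9.65, 10.15 and 9.92 against 10.28 to 10.73 (difference 0.59 ± 0.13, adjusted p = 0.02). For both genes no lymphoma reached the DN3 range. Fyn, a Src-family kinase (0.66 ± 0.16), Plcg1, the phospholipase C downstream of the receptor (0.63 ± 0.13), Rasgrp1, the Ras exchange factor that it feeds (0.56 ± 0.12), and Ptpn22, a phosphatase that restrains the pathway (0.56 ± 0.13), were the other rises, and Ptcra was the fall. Of 24 tested genes that receptor signalling induces, Dusp10, a phosphatase for MAP kinases (1.07 ± 0.11, adjusted p = 0.000238), and Egr1, an immediate-early transcription factor (0.79 ± 0.13, adjusted p = 0.0046), were called higher and none lower. That is 8.33% of the induced genes, close to the 6.62% of all tested genes, and 1 was lower with the array batch as a term. All 6 rises of the receptor list were lost without DN3 replicate 1 (adjusted p = 0.0537 to 0.096) and within the larger batch (0.0527 to 0.162). All of them but Cd28 were also lost without DN3 replicate 3 (0.062 to 0.126), Ptpn22 without DN3 replicate 2 or lymphoma 5 (0.0674 and 0.0566), Fyn without lymphoma 3 or 6 (0.0545 and 0.0541), and Rasgrp1, Ptpn22 and Plcg1 with arrays quantile-normalised again (0.0731 to 0.0961).

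Costimulatory and inhibitory receptors did not move together. Ctla4, the inhibitory relative of Cd28, was at 8.51, 9.30 and 8.48 in DN3 and at 5.80 to 6.09 in 5 lymphomas, with 6.72 in lymphoma 4 (difference -2.65 ± 0.21, adjusted p = 2.63e-05). Its wild-type mean was 7.89. Icos, an inducible costimulator, went the other way, from 6.18, 6.34 and 6.02 to between 6.54 and 7.84 (difference 1.23 ± 0.23, adjusted p = 0.00821). In both genes the groups were separate. Cd160 (0.98 ± 0.24) and Btla (0.81 ± 0.12), which bind the same ligand HVEM, were also called higher. With Cd28 this made 4 rises and 1 fall among 16 tested genes (31.2% called, against 6.62% of all tested genes), with a median of 0.09. Icos was not called without DN3 replicate 3 (adjusted p = 0.0538) and Cd28 not without DN3 replicate 1 (0.0561). Cd160 was not called without DN3 replicate 1, 2 or 3 or lymphoma 2 or 3 (0.0505 to 0.1), and none of these 3 was called within the larger batch (0.0779 to 0.0815).

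Genes of cytokine receptors and JAK-STAT signalling, feedback inhibitors included, were called in both directions. Of 25 tested, 3 were higher and 5 lower (32.0% called, against 6.62% of all tested genes). The median was 0.07, or 0.02 with arrays quantile-normalised again. Il6st, the gp130 signal transducer shared by receptors of the interleukin-6 family, was at 7.50, 7.53 and 7.46 in DN3 and at 8.68, 9.03 and 9.14 in the lymphomas. The groups were separated by over 1 unit (difference 1.49 ± 0.11, adjusted p = 1.24e-05). Il2rb, the beta chain of the interleukin-2 and interleukin-15 receptors, rose by 0.86 ± 0.17 (adjusted p = 0.0126) and Jak2 by 0.83 ± 0.15 (adjusted p = 0.00681). Ifngr1, the ligand-binding chain of the interferon-gamma receptor, was at 8.76, 9.35 and 9.02 in DN3 and between 7.34 and 8.09 in the lymphomas (difference -1.20 ± 0.17, adjusted p = 0.00169). Tgfbr1, the type I receptor for TGF-beta, fell by 0.99 ± 0.14 (adjusted p = 0.00151). The feedback inhibitors Socs2 (-0.70 ± 0.10), Socs3 (-0.61 ± 0.10) and Cish (-0.36 ± 0.10) were lower too. Il7r, the interleukin-7 receptor that supports survival of early thymocytes, was at 7.73, 8.06 and 7.29 in DN3, at 5.67 to 6.54 in 5 lymphomas and at 8.26 in lymphoma 3, and was not called (-1.29 ± 0.47, adjusted p = 0.119). Il2rb was not called without DN3 replicate 3 (adjusted p = 0.0752) and Cish with any single array left out other than DN3 replicate 2 (0.0512 to 0.175) or with arrays median-centred (0.0648) or quantile-normalised again (0.0863). Jak2, Il2rb, Socs3 and Cish were not called within the larger batch (0.0618 to 0.276).

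Among receptors that guide migration, Ccr9, which binds the thymic and intestinal chemokine CCL25, was at 5.51, 6.11 and 5.64 in DN3 and at 6.18, 7.63 and 8.24 in the lymphomas. Lymphoma 6 lay just above DN3 and the other 5 well above (difference 1.79 ± 0.36, adjusted p = 0.0125), with a wild-type mean of 6.90 between the groups. Ccr4 rose by 0.73 ± 0.09 (adjusted p = 0.000632) and Cxcr6 by 0.61 ± 0.15 (adjusted p = 0.0293), making 3 rises and no fall among 12 tested genes, with a median of -0.04. Rises were called for 4.50% of all tested genes. Of 24 tested adhesion genes, Cd81, the integrin beta chain Itgb1 (0.80 ± 0.13, adjusted p = 0.00338) and Pecam1 (0.64 ± 0.16, adjusted p = 0.0297) rose and Lgals1 and Itga4 fell. These calls were 20.8% of the list, against 6.62% of all tested genes, and the list had a median of -0.11. Itgb1 pairs with Itga4 in VLA-4, and the 2 chains thus moved in opposite directions. Ccr9, Cxcr6 and Pecam1 were not called without DN3 replicate 1 (adjusted p = 0.0573 to 0.125) or 3 (0.0684 to 0.16), Cxcr6 and Pecam1 not without lymphoma 2 or 5 (0.0509 to 0.0579), and Cxcr6 not without lymphoma 6 (0.0533). Pecam1 was not called with arrays quantile-normalised again (0.0773), and these 3 and Itgb1 not within the larger batch (0.056 to 0.129).

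Genes that mark the double-positive stage or later maturation gave 3 rises and 2 falls among 16 tested, with a median of -0.06. That is 31.2% called, against 6.62% of all tested genes. Cd53, a tetraspanin of leukocytes, was at 8.55, 8.76 and 7.80 in DN3 and between 9.27 and 10.70 in the lymphomas (difference 1.84 ± 0.30, adjusted p = 0.00387). Ccr9 and Itm2a were the other rises. Ly6d, a GPI-anchored surface protein, was at 9.51, 8.64 and 8.90 in DN3 and between 6.37 and 6.92 in the lymphomas (difference -2.39 ± 0.17, adjusted p = 1.38e-05). Aqp11, an aquaporin, fell by 1.33 ± 0.27 (adjusted p = 0.0124). In all these genes the lymphoma and DN3 arrays were separate. The call of Aqp11 was lost without DN3 replicate 1 or 3 (adjusted p = 0.0653 and 0.0516), and that of Ccr9 as given above.

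Of 24 tested oncogenes of T cell acute leukaemia, none was called higher and 2 were lower (8.33% called, against 6.62% of all tested genes), with a median of -0.14. With the array batch as a term 1 was higher and 4 were lower, and within the larger batch alone 1 was called in each direction. Erg, an ETS factor of stem and progenitor cells, was at 7.0, 6.20 and 6.58 in DN3 and between 5.33 and 5.81 in the lymphomas (difference -0.96 ± 0.16, adjusted p = 0.00385), and it was also the 1 call among 15 tested early progenitor genes (median -0.21), a share of 6.67% that is close to that of all tested genes. Bcl2, the survival factor, was at 7.89, 8.36 and 8.00 against 6.62 to 7.65 (difference -0.92 ± 0.21, adjusted p = 0.0239), the 1 call among 14 tested genes of the Bcl-2 family, again near that share at 7.14%. With the batch term 2 early progenitor and 3 Bcl-2 family genes were lower. Lymphomas lay below all DN3 arrays for Erg and Bcl2. Myc lay at 9.52, 9.49 and 9.80 in DN3 and between 9.45 and 9.91 in the lymphomas and was not called (0.12 ± 0.12, adjusted p = 0.554). The call of Bcl2 was lost without DN3 replicate 1, 2 or 3 (adjusted p = 0.0552, 0.0714 and 0.0798) and within the larger batch (0.089).

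Tumour suppressors of the same disease were called higher in 7 of 25 cases (28.0%, against 4.50% of all tested genes) and lower in none. Their mean levels were 7.97 to 8.16 in DN3, and rises are more frequent among bright genes, with 366 among the 3738 brightest. For those brightest genes the median difference was 0.11, and for this list it was 0.22. That median was 0.10 without DN3 replicate 3, 0.42 without DN3 replicate 2 and 0.14 with arrays quantile-normalised again, and the rises numbered 4 without DN3 replicate 1 or 3 and 1 within the larger batch. Nf1, a brake on Ras, was at 7.15, 7.17 and 7.02 in DN3 and between 7.62 and 8.01 in the lymphomas (difference 0.76 ± 0.11, adjusted p = 0.0015). Cyld, a deubiquitinase that limits NF-kB signalling, was at 7.20, 7.73 and 7.16 against 7.94 to 8.27 (difference 0.72 ± 0.13, adjusted p = 0.0073). The ranges of these genes did not overlap. The others were Ikzf1, Gata3 and Lef1, described above, the DNA methyltransferase Dnmt3a (0.48 ± 0.12) and the chromatin factor Phf6 (0.47 ± 0.12). Cdkn2a, which encodes the p16 and p19 inhibitors, lay between 5.02 and 5.55 over the 9 arrays (-0.04 ± 0.12, adjusted p = 0.867), and Cdkn1b, the p27 inhibitor, differed by 0.55 ± 0.16 (adjusted p = 0.0647, not called, but 0.0134 with the array batch as a term). Cyld was not called without DN3 replicate 3 (adjusted p = 0.0513), Phf6 with any single array left out other than DN3 replicate 2 or lymphoma 4 (0.0609 to 0.155), and Dnmt3a with any other than DN3 replicate 3 or lymphoma 1 (0.0512 to 0.125). Dnmt3a and Phf6 were not called with arrays quantile-normalised again (0.205 and 0.101), and Cyld, Phf6 and Dnmt3a not within the larger batch (0.0754 to 0.259).

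Cell cycle genes gave few calls. None of 27 tested S phase genes and none of 25 tested G2 and mitosis genes was called, with differences of -0.42 to 0.07 and -0.37 to 0.20 and medians of -0.18 and 0.01. At an unadjusted limma p under 0.05 there were 3 S phase genes and 1 of G2 and mitosis. In the S phase list 26 of 27 genes lay below 0, but the tumours differed. The mean level of that list was 7.79, 7.87 and 7.77 in DN3. It was 7.93 in lymphoma 6, above every DN3 array, 7.75 in lymphoma 1 and 7.48 to 7.61 in lymphomas 2 to 5. For G2 and mitosis the mean level was 7.71 to 7.97 in DN3 and ran from 7.47 in lymphoma 3 to 8.03 in lymphoma 6. With arrays quantile-normalised again the medians were -0.29 and -0.05, and none of the 27 S phase genes lay above 0. Of 28 tested G1 genes, Ccnd2 and E2f2 (-0.53 ± 0.12, adjusted p = 0.0216) were lower and none was higher, a share of 7.14%, but 2 were higher and 2 lower with the array batch as a term. None of 22 tested genes of the nucleolus and ribosome biogenesis was called, with 6 at an unadjusted p under 0.05 and 1 called lower with the batch term. In glycolysis 2 of 17 tested genes were called higher (11.8% called, against 6.62% of all tested genes). They were the pyruvate kinase gene Pkm (0.59 ± 0.12, adjusted p = 0.0122) and Pdk1, the kinase that inhibits pyruvate dehydrogenase (0.58 ± 0.13, adjusted p = 0.0206). Of 18 tested p53 target genes 4 were higher and none lower (22.2% called, against 6.62% of all tested genes), with a median of 0.19. Ei24, a membrane protein of the endoplasmic reticulum, was at 7.29, 7.34 and 6.75 in DN3 and between 7.85 and 8.45 in the lymphomas (difference 1.10 ± 0.16, adjusted p = 0.00166), and Trp53inp1 (0.56 ± 0.13), Zmat3 (0.53 ± 0.11) and Polk (0.51 ± 0.12) were the others. E2f2, Ccnd2, Pdk1, Polk and Trp53inp1 were not called without DN3 replicate 1 (adjusted p = 0.0669 to 0.109), E2f2 not without DN3 replicate 2 (0.0597), and Pdk1, Pkm, Polk and Zmat3 not without DN3 replicate 3 (0.0685 to 0.0943). Trp53inp1 was not called without lymphoma 2 or 5 (0.0501 and 0.0514), Pkm and Trp53inp1 not with arrays quantile-normalised again (0.0736 and 0.104), and E2f2, Pdk1, Polk and Trp53inp1 not within the larger batch (0.141 to 0.18).

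Chromatin regulators were called in both directions. Of 28 tested, 5 were higher, Chd7 and Dnmt3a among them, and 2 lower, with a median of 0.12 that was 0.03 with arrays quantile-normalised again. For comparison, 6.62% of all tested genes were called. The catalytic subunits of the SWI/SNF remodeller moved in opposite ways. Smarca2 (BRM) was at 6.99, 7.10 and 7.08 in DN3 and between 7.75 and 8.15 in the lymphomas (difference 0.85 ± 0.10, adjusted p = 0.000619), while Smarca4 (BRG1) was at 8.70, 8.66 and 8.72 against 8.09 to 8.39 (difference -0.49 ± 0.09, adjusted p = 0.00829). Neither pair of ranges overlapped. Within the CHD family, Chd3, a subunit of the NuRD complex, fell from 6.59, 7.32 and 6.77 to between 5.51 and 6.11 (difference -1.13 ± 0.17, adjusted p = 0.00218), and Chd2 rose by 0.63 ± 0.12 (adjusted p = 0.00982). Rnf2, the catalytic ubiquitin ligase of Polycomb complex PRC1, rose by 0.82 ± 0.13 (adjusted p = 0.00337). Chd2 was not called without DN3 replicate 1 or 3 (adjusted p = 0.0539 and 0.0615), and Chd2 and Smarca4 not within the larger batch (0.0638 and 0.0858).

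GIMAP genes encode GTPases of lymphocyte survival and lie in a cluster. All 7 tested members lay above 0 with a median of 0.57, and 3 were called higher (42.9% called, against 6.62% of all tested genes). Gimap4 was at 6.83, 6.88 and 6.47 in DN3 and at 8.12, 8.56 and 8.90 in the lymphomas, against a wild-type mean of 5.15. The 3 groups were thus separate and in that order (lymphoma minus DN3 1.82 ± 0.17, adjusted p = 7.6e-05). Gimap9 rose by 0.66 ± 0.10 (adjusted p = 0.00194) and Gimap8 by 0.65 ± 0.18 (adjusted p = 0.0495). Gimap8 was not called with any single array left out other than DN3 replicate 2 or lymphoma 1 (adjusted p = 0.0581 to 0.197), with arrays quantile-normalised again (0.0638), without the filter on dim genes (0.0595) or within the larger batch (0.147).

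Of 19 tested genes of the interferon response, none was called higher and 4 were lower (21.1%, against 2.12% of all tested genes), or 7 with the array batch as a term and 2 within the larger batch alone or without DN3 replicate 1. The other 15 did not pass the test. In all 17 lay below 0, and the median of -0.35 was the lowest of the 25 pathway lists. The mean level of the list was 6.50, 6.39 and 6.05 in DN3 and 5.67 to 5.90 in the lymphomas. In wild-type DN3 it was 6.07, 6.02 and 5.88, below DN3 replicates 1 and 2 and near the lymphomas. Ifitm3, a membrane protein that blocks viral entry, was at 9.24, 8.80 and 7.26 in DN3 and at 5.76 to 6.08 in 5 lymphomas, with 5.12 in lymphoma 5 (difference -2.61 ± 0.35, adjusted p = 0.00125). Samd9l, an interferon-induced growth inhibitor, was at 7.04, 7.39 and 5.80 in DN3 and between 3.89 and 4.44 in the lymphomas (difference -2.50 ± 0.27, adjusted p = 0.000256). These lymphoma levels lie below 4.78, so that the size of the Samd9l difference may be understated. DN3 replicate 3 was the lowest DN3 array for both and still lay above every lymphoma. Ifi27l2a (-0.46 ± 0.10, adjusted p = 0.0235) and Ifit1, an RNA-binding protein of the antiviral response (-0.44 ± 0.09, adjusted p = 0.0154), were the others. Both were lost without DN3 replicate 1 (adjusted p = 0.0841 and 0.0724) and within the larger batch (0.127 and 0.107), and Ifi27l2a also without DN3 replicate 2 (0.0632).

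Guanylate-binding proteins are GTPases induced by interferon-gamma, and were looked up after their values were seen. Of 6 tested, 5 were called lower and none higher, while 2.12% of all tested genes were called lower. Gbp8 was at 9.43, 9.77 and 9.26 in DN3 and at 6.94, 7.19 and 7.71 in the lymphomas (difference -2.21 ± 0.18, adjusted p = 2.63e-05). Gbp7 was at 7.02, 7.36 and 7.04 against 5.42 to 6.03 (difference -1.38 ± 0.14, adjusted p = 0.000117), and Gbp4 at 8.52, 8.85 and 8.33 against 7.03 to 7.75 (difference -1.25 ± 0.17, adjusted p = 0.00119). All lymphomas lay below all DN3 arrays for these 3 genes, and wild-type means were 9.99, 7.07 and 9.31. Gbp11 (-1.10 ± 0.24, adjusted p = 0.0193) and Gbp9 (-0.89 ± 0.13, adjusted p = 0.00229) were the others, and Gbp11 was not called without DN3 replicate 1 (0.0792) or within the larger batch (0.0861). These paralogs are similar in sequence and lie in clusters, so their probes may not be independent.

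The promoters of Gbp7 and Ifit1 are shown because both genes fell and both hold motifs of interferon signalling. Capitals mark the interferon-stimulated response element, searched on both strands as TTTC, any 2 bases and TTTC again, and in Gbp7 also the STAT motif TTCNNNGAA. In Gbp7 the former begins 53 bases before the start and the latter 106 and 87 bases before it. In Ifit1 the response element begins 104 and 85 bases before the start. Both are given as the 250 bases before the start on the plus strand of GRCm38.p6 from RefSeq, at chr3:142530086-142530335 and chr19:34640639-34640888.
Gbp7: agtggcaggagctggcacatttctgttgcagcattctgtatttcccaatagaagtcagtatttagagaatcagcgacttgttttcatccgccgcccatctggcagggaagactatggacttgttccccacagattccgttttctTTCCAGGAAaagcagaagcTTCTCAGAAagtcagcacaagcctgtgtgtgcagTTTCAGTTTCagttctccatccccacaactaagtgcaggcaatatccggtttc
Ifit1: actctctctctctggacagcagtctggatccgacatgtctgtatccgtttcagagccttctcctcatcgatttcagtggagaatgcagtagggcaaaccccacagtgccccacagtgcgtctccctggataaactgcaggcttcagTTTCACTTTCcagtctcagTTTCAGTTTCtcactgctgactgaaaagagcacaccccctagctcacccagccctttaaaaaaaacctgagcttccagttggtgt
The response element was present in 2.65% of the 9615 single promoters, in 3.37% of the 416 of genes called higher and in 3.49% of the 172 of genes called lower. The STAT motif was present in 6.29%, 5.29% and 7.56%. Both motifs were added after the data were seen.

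**Figure D5:**
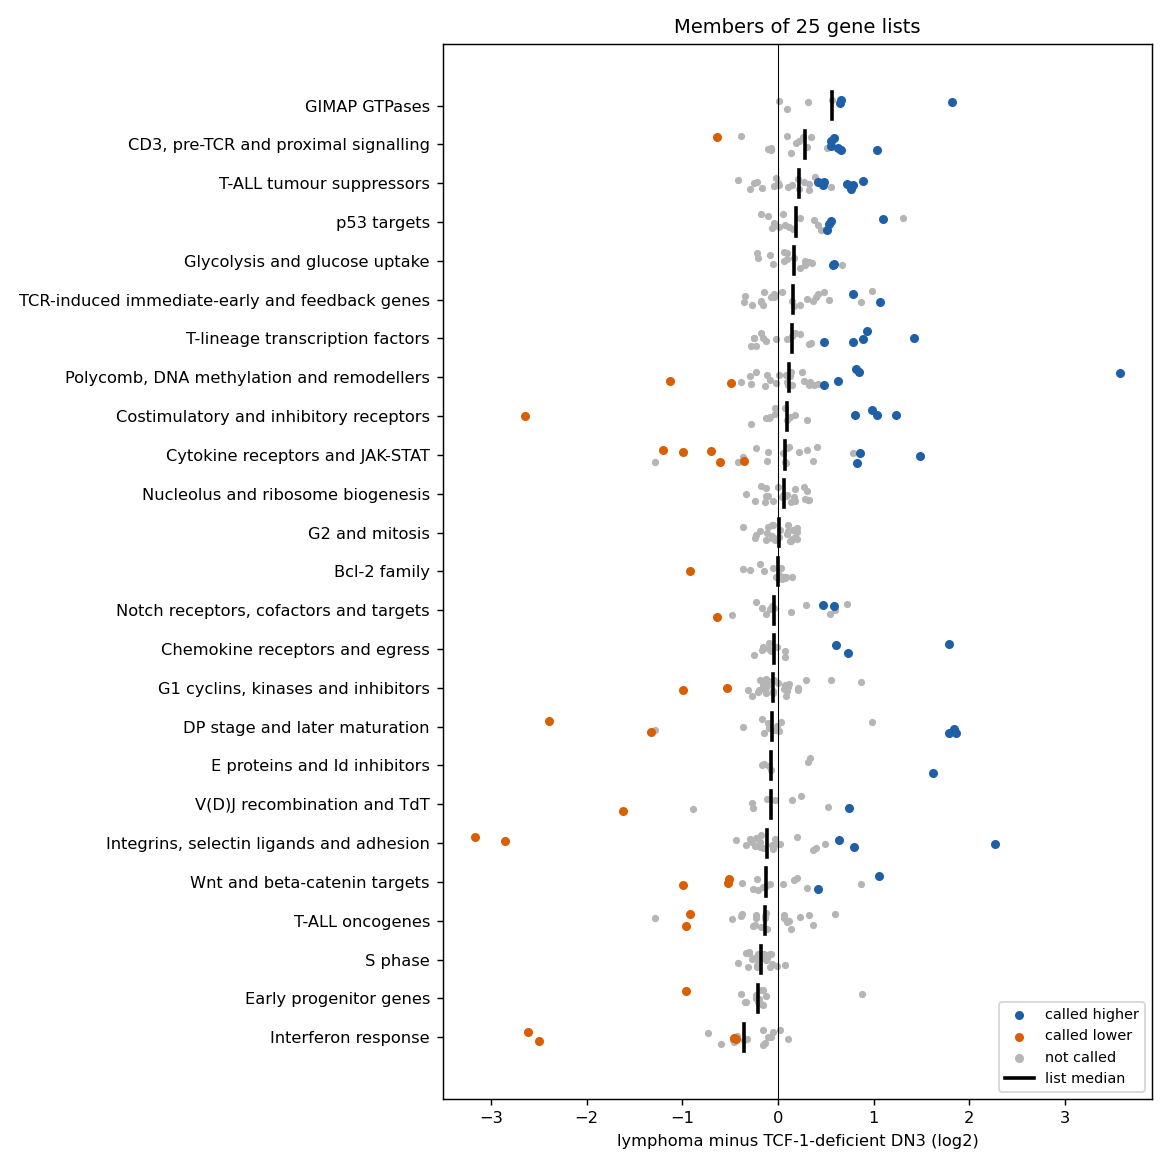
Differences between lymphoma and TCF-1-deficient DN3 (horizontal axis, log2) of the tested members of 25 gene lists (rows, ordered by median), with called members in blue (higher) and orange (lower) and a black bar at each list's median. GIMAP genes stand at the top with a median of 0.57 and the interferon response at the bottom with -0.35, while S phase, G2 and nucleolar genes hold no coloured point.

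MicroRNAs are short RNAs cut from longer transcripts, and the array holds rows annotated to the genes of these transcripts. Of 124 tested, 5 were called (4.03%, against 6.62% of all tested genes), 1 higher and 4 lower, with a median of -0.11 and 98 below 0. The mature sequences of the changed genes that RefSeq (GRCm38.p6) lists are shown to identify them, with the seed, bases 2 to 8, in capitals. No 2 of the 8 share a seed.
mmu-miR-181b-5p: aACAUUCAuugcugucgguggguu
mmu-miR-181b-2-3p: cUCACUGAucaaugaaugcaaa
mmu-miR-375-5p: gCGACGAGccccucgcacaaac
mmu-miR-219a-5p: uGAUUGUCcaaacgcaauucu
mmu-miR-219a-1-3p: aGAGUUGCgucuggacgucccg
mmu-miR-150-3p: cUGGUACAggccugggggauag
mmu-miR-7a-5p: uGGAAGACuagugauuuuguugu
mmu-miR-7a-2-3p: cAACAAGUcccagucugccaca
Mir181b-2, the precursor of miR-181b, whose family tunes T cell receptor sensitivity in thymocytes, was at 5.29, 5.33 and 5.35 in DN3 and at 5.78, 6.51 and 7.23 in the lymphomas. All lymphomas lay above DN3, by 1.13 ± 0.25 on average (adjusted p = 0.0189). Mir375 (-0.62 ± 0.12, adjusted p = 0.009), Mir219a-1 (-0.54 ± 0.13, adjusted p = 0.0251), Mir150 (-0.44 ± 0.12, adjusted p = 0.0472) and Mir7-2 (-0.42 ± 0.09, adjusted p = 0.017) were lower. Mir181b-2, Mir219a-1 and Mir7-2 were not called without DN3 replicate 1 (adjusted p = 0.0602 to 0.0733) or 3 (0.0563 to 0.136), and Mir150 with any single array left out other than lymphoma 4 (0.0523 to 0.203). Mir219a-1, Mir150 and Mir7-2 were not called within the larger batch (0.0576 to 0.117). The amount of mature microRNA was not measured.

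Markers of other cells that a thymic sort could hold were listed as well. In bulk RNA, fewer cells of a type and less RNA per cell cannot be told apart. The 7 tested B cell markers had mean levels of 5.57 to 5.71 in DN3 and 5.27 to 5.41 in the lymphomas. Of these 2 were called lower, Cd79b (-0.82 ± 0.12, adjusted p = 0.00186) and Vpreb1 (-0.50 ± 0.12, adjusted p = 0.0297), or 28.6% against 6.62% of all tested genes called. The 13 tested myeloid and dendritic markers were at 5.16 to 5.34 and 5.24 to 5.42. Among them 1 was called (7.69%, near the share of all tested genes), H2-Ab1 (0.72 ± 0.17, adjusted p = 0.0261), and none of 4 erythroid markers was called. Thymic stroma markers were at 5.54 to 5.68 in DN3 and 5.33 to 5.56 in the lymphomas, and 18.8% of them were called. Of 16 tested, Epcam, an epithelial adhesion molecule, was at 6.32, 5.94 and 5.50 in DN3 and between 4.59 and 4.96 in the lymphomas (difference -1.06 ± 0.15, adjusted p = 0.00191), Foxn1 differed by -0.36 ± 0.09 and Pecam1 rose. Pdgfrb is also expressed by stromal cells, and the part of such cells in its difference was not tested.

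The 10 tested NK and innate lymphoid markers had mean levels of 6.32 to 6.64 in DN3 and 6.38 to 6.71 in the lymphomas. Il2rb and Id2 were called higher and Nkg7, a granule protein of cytotoxic cells, lower (-1.18 ± 0.22, adjusted p = 0.00862). That is 30.0% called, against 6.62% of all tested genes. The 9 tested gamma-delta T cell markers were at 5.90 to 5.99 in DN3 and 6.03 to 6.89 in the lymphomas. Icos and Etv5 were called higher (22.2% of the list), and the median was 0.35. The part of these cells in the differences of Icos, Etv5, Id2 and Il2rb was not tested. Nkg7 was not called without DN3 replicate 1 (adjusted p = 0.0511), H2-Ab1 without DN3 replicate 1, 2 or 3 (0.0541 to 0.107), Vpreb1 with any single array left out other than lymphoma 3 or 4 (0.0507 to 0.147) and Foxn1 with any other than DN3 replicate 2 or lymphoma 6 (0.0513 to 0.164). Nkg7, H2-Ab1, Vpreb1 and Foxn1 were not called within the larger batch either (0.0517 to 0.235).

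The lymphomas were not alike in every gene. Their pairwise correlations over all 19938 genes, dim ones included, ran from 0.971 to 0.989 and those of DN3 from 0.974 to 0.984. The median SD of a tested gene was 0.153 in the lymphomas and 0.162 in DN3. The highest correlation was that of lymphomas 1 and 2, both in the smaller batch. Rag1 was lowest in lymphomas 4 and 2 and highest in lymphoma 6, and Rag2 was also highest in lymphoma 6. Ccr9, Icos and Il2rb were lowest in lymphoma 6. Il7r stood high in lymphoma 3, where Id2 was lowest. T cell receptor segments varied by tumour as well. Trgv1, a gamma variable segment, was at 10.95, 10.92 and 10.61 in DN3, at 9.95 to 11.14 in 5 lymphomas and at 7.37 in lymphoma 6. Trav19, an alpha variable segment, was at 6.69 in lymphoma 1 and at 4.49 to 4.82 in the other 8 arrays. Trdv2-2, a delta segment, was lower in all lymphomas, at 6.19, 5.93 and 6.06 in DN3 and between 4.53 and 4.96 (difference -1.33 ± 0.11, adjusted p = 4.49e-05), and Trbv1 fell by 0.79 ± 0.12 (adjusted p = 0.00215). These segments were chosen after their values were seen.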

How the data were processed

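The series holds 12 Affymetrix Mouse Gene 1.0 ST arrays. Per the submitters' processing notes, the log2 signals that the authors deposited come from RMA, run in Partek. Sources used here give no version, setting or log base, and base 2 was taken from the range of the values. RMA quantile-normalises arrays, so each difference is relative to other genes and a shift in total RNA would be hidden. Signals have a floor and saturate, and the number of arrays limits precision.

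Of 35556 rows, 21789 had 1 gene symbol in the platform annotation, 1621 had several and 12146 had none here. The row with the highest mean over 12 arrays stood for a gene (19938 genes, 999 with several rows). Genes with a mean under the 25th percentile (4.78) were left out, leaving 14953. The 3 TCF-1-deficient DN3 and 6 lymphoma arrays were fitted with limma 3.58.1 (lmFit, eBayes; R 4.3.3), two-sided, with Benjamini-Hochberg adjustment over all genes tested. Every p-value given for a gene is adjusted and from limma, and a call is an adjusted p under 0.05. Counts at an unadjusted limma p under 0.05 are named as such. The fit was tested on simulated data with independent noise for each gene. Those data held no array batch or sex difference, so that test does not bear on either. Lists are described by counts and medians, with no list test. The gene lists, the rule for named genes (the 12 largest rises and falls among called genes whose arrays do not overlap, without predicted loci, up to 4 members per list and a fixed set) and the comparison were chosen with earlier results of these data known. Array batches were read from unnamed rows. Promoter and microRNA sequences are RefSeq's (GRCm38.p6).

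Alternatives were other scalings, filters and variance models, averaged rows, all 12 arrays, weights per group, a batch or Xist term, the larger batch alone, replicate numbers as a block and each array left out. Same-numbered DN3 and lymphoma arrays deviated from their group means with correlations of 0.38, -0.26 and 0.11, so the numbers were not taken to pair them.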

Additional observations from a re-analysis of the deposited data

Results flagged for a closer look

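In each group of 6 lymphomas, a gene was listed when 1 tumour stood apart from the others by more than 0.625 of the whole range (Dixon's test), which chance alone gives in about 1 in 20 groups. Of the 132 genes looked at, 10 were listed. Part of the 132 were named for their values, so this count cannot be set against 1 in 20. Among the leading genes, Ctnnd1 was low in lymphoma 4 (7.28), Akr1c13 was high in lymphoma 1 (6.64), Ctla4 was high in lymphoma 4 (6.72) and Ifitm3 was low in lymphoma 5 (5.12), and all these tumours still lay on the lymphoma side of DN3. Il2ra (9.89) and Cdkn2a (5.02) were low in lymphoma 2, Epcam (4.59) was low in lymphoma 6 and Il7r was high in lymphoma 3 (8.26). For the receptor segments, Trgv1 was low in lymphoma 6 (7.37) and Trav19 was high in lymphoma 1 (6.69). These segments were chosen after their values were seen, so their listing is no finding.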

How the results depend on the processing

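The 990 calls became 1702 with the array batch as a term, 325 within the larger batch alone (2 against 4 arrays) and 431 (without DN3 replicate 3) to 1361 (without DN3 replicate 2) when single arrays were left out. Of the 132 genes named, 111 were called. All 111 kept their direction under the 21 alternatives, 55 stayed called under each of them and 63 whichever array was left out. With replicate numbers as a block 999 genes were called, and the numbers do not pair these samples. Reversals were seen only in genes that were not called. Cd8b1 (0.03) became -0.12 with arrays quantile-normalised again, -0.00 with an Xist term and -0.28 with the replicate block. Cd44 (-0.05) became 0.04 and Cdkn2a (-0.04) became 0.04 with arrays quantile-normalised again, and Cdkn2a became 0.05 within the larger batch. Id3 (-0.09) became 0.10 with the replicate block and Trav19 (0.24) became -0.07 within the larger batch. Leaving out single arrays gave -0.11 to 0.16 for Cd8b1, -0.17 to 0.01 for Id3, -0.13 to 0.05 for Cdkn2a and -0.10 to 0.34 for Trav19. The causes were not tested, except that the larger batch and the fits without 1 array hold fewer arrays. Dim genes near the signal floor have understated differences.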

Other observations

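Some values fit none of the comparisons above. Among genes above the 75th percentile of mean level, each placed on a chromosome through RefSeq (GRCm38.p6), the median difference from the DN3 mean was taken for each lymphoma and chromosome. Chromosome 14, with 159 such genes, stood at 0.28 in lymphoma 3 and 0.40 in lymphoma 5. The other chromosomes looked at were 1 to 13, 15 to 17, 19 and X, and the rest were not examined. They lay between 0.00 and 0.15 in lymphoma 3 and between 0.01 and 0.14 in lymphoma 5. In lymphoma 4 chromosome 14 was at 0.11, also above the others (-0.02 to 0.08). It was not above the highest of the others in lymphoma 1 (0.27, others 0.11 to 0.27), lymphoma 2 (0.20, others 0.02 to 0.25) or lymphoma 6 (0.22, others 0.07 to 0.26). The T cell receptor alpha and delta locus lies on this chromosome.

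Y-linked genes were at levels above those of female arrays in DN3 replicate 3 and lymphomas 1, 2 and 6, the arrays without Xist RNA. Uty and Kdm5d were at 6.54 and 7.05 in lymphoma 6, while Eif2s3y was at 3.63 there. Eif2s3y was at 6.81 in DN3 replicate 3, at 7.92 in lymphoma 1 and at 7.96 in lymphoma 2. In the arrays with Xist RNA Eif2s3y was between 3.60 and 3.74. Eif2s3y was thus at the level of female arrays in lymphoma 6 and Uty and Kdm5d were not.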
